A study of Mus musculus with 9 samples.

Results

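Translation initiation factors are the proteins that bring the ribosome, the initiator tRNA and an mRNA together at a start codon. Their genes were taken from the deposited count table by symbol: every gene whose symbol starts with Eif1, Eif2, Eif3, Eif4, Eif5 or Eif6, without the Eif4ebp binding proteins and the Eif2ak kinases, and with at least 100 counts summed over the 9 libraries. Of 17527 genes in the table, 49 matched the symbols and 47 met the minimum; Eif4a3l1 and Eif4e1b did not. All 47 also passed the filter on low counts that left 13711 genes for testing.

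RNA was sequenced from the anterior lens capsule of mice, a basement membrane that covers the lens front, with its attached epithelial sheet. The 9 libraries fall into 3 groups of 3, which are aged mice given EGCG (epigallocatechin gallate, a catechin of green tea), aged control mice and young control mice. Strain, genotype, ages, dose, route and duration of treatment were not given in the sources used here, nor was it stated whether the libraries of a group come from separate animals, so p-values measure the spread between these samples only, which may be technical. The comparisons ask how the transcripts differ with age, and with EGCG in aged mice. The aged control and young control libraries each serve in 2 of the 3 comparisons.

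In initiation, eIF2 bound to GTP carries the initiator tRNA to the small ribosomal subunit, eIF2B recharges eIF2 with GTP, and eIF3 is the large scaffold on that subunit. The cap of the mRNA is bound by eIF4E, which works with the scaffold eIF4G and the helicase eIF4A. eIF1 and eIF1A keep the scanning ribosome selective for the start codon, eIF5 triggers GTP hydrolysis on eIF2, and eIF5B joins the large subunit. In the lens, epithelial cells differentiate into fibre cells that make crystallins in very large amounts and lose their organelles, so most synthesis of protein takes place in epithelium and young fibres.

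Library totals ranged from 13184169 to 16528179 counts, and each member had between 822 (Eif3j2) and 108073 (Eif5b) counts summed over the libraries. TMM factors, which scale each library to the bulk of its genes, were 0.981 to 0.989 in aged EGCG, 0.881 to 0.926 in aged control and 1.12 to 1.13 in young control libraries. Of 24 lens epithelium markers, 23 had counts in every library and Sfrp2 was at 0 in 6 of 9. Crystallin genes took 31.3% to 33.3% of all counts in aged control libraries. Their share was 28.2% to 28.4% in aged EGCG and 28.0% to 28.4% in young control libraries. Lens fibre genes took 4.13% to 4.32% in aged control, 3.97% to 4.09% in aged EGCG and 4.81% to 4.82% in young control. The epithelium markers took 0.924% to 1.02%, 0.923% to 0.963% and 0.893% to 0.906% in the same order of groups. Markers of the retina, which is not part of the capsule, were present too: none of 34 was at 0 in any library, and their summed level was 13430 to 13649 CPM (counts per library, brought to 1 total with the TMM factors) in aged EGCG, 2525 to 2539 CPM in aged control and 29808 to 29977 CPM in young control libraries. The retinal markers were lower in 34 of 34 cases in aged against young control and higher in 33 of 34 in aged EGCG against aged control. The part of the crystallin, lens fibre and retinal differences in the results below was not tested. In bulk samples, fewer cells of a type and less RNA per cell cannot be told apart.

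Most initiation factor genes were higher in aged control than in young control capsule. By edgeR's quasi-likelihood test with Benjamini-Hochberg adjustment over all genes tested (called at an adjusted p under 0.05), 39 of the 47 rose and 3 fell, against 35.4% of all genes called higher and 33.8% called lower. The 5 others, Eif4e, Eif2s3x, Eif4enif1, Eif1b and Eif3j2, were not called. The median log2 fold change of the members was 0.69, beside 0.02 over all genes tested, which were not matched to the members by level or length. Libraries of both groups did not overlap for 40 members, against 72.1% of all genes. The members took 0.854% to 0.866% of all counts in aged EGCG and 0.817% to 0.848% in aged control libraries. In young control libraries they took 0.673% to 0.681%. This share is scaled by library total alone. With TMM factors the aged groups stood in the other order, at 8636 to 8802 CPM in aged EGCG and 9157 to 9402 CPM in aged control.

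The size of this rise depended on how libraries were scaled. Scaled by library size alone, 31 members were called higher and 7 lower, against 21.4% of all genes called higher and 47% called lower. Scaled to lens fibre genes, 30 were called higher and 8 lower, against 19.9% and 49.5% of all genes. The median of all genes moved down by 0.32 and 0.37 on the log2 scale in those settings. The lens fibre genes used as a scale differed with age themselves. Under TMM scaling, 15 of 21 were called higher with age and 6 lower, against 35.4% and 33.8% of all genes. The members' median stayed above that of all genes by 0.54 to 0.69 in all 19 settings tried. A change of scaling factor moves all genes nearly alike, so this gap cannot test the scaling. In each of the 19 settings 29 members were called higher and Eif1a lower.

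**Figure D1:**
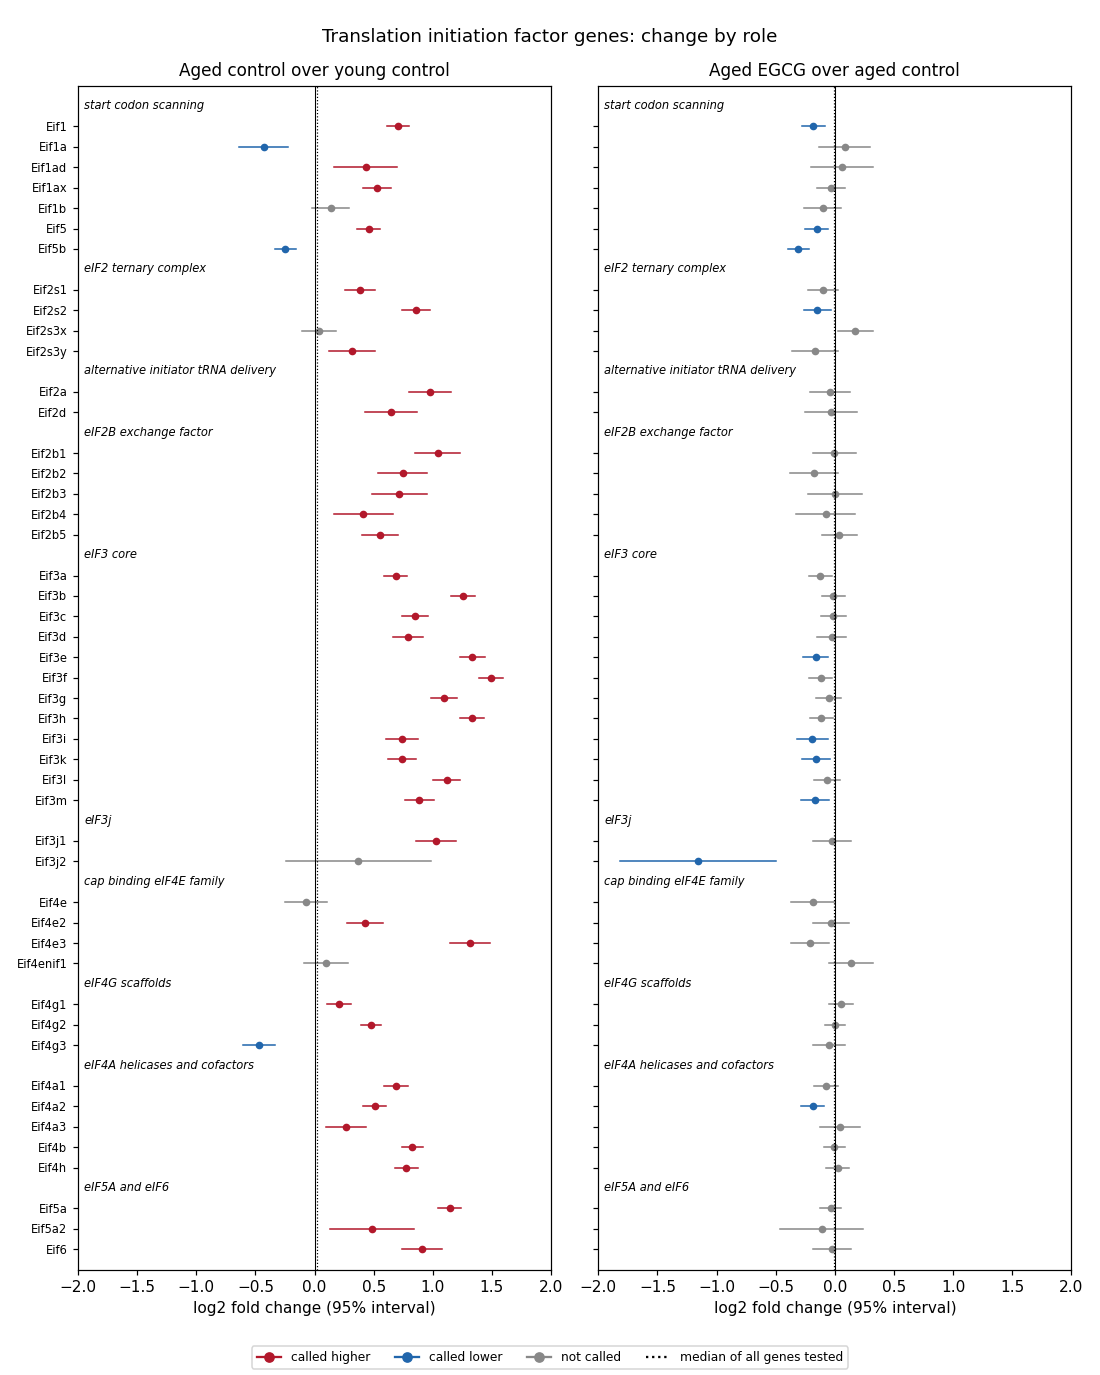
Log2 fold change of each of the 47 genes (point) with its 95% interval (line), grouped by role, for aged control over young control (left) and aged EGCG over aged control (right); red, blue and grey mark genes called higher, called lower and not called by edgeR with TMM scaling, and the dotted line is the median of all genes tested. On the left 39 points are red and 3 blue, and on the right 10 are blue and none red; with libraries scaled to lens fibre genes these counts were 30 and 8 on the left, and 1 lower and 17 higher on the right.

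The eIF3 core held the steepest rises. eIF3 keeps the small subunit apart from the large one and links it to eIF4G. All 12 core subunit genes were called higher in aged against young control, by 1.61-fold (Eif3a) to 2.81-fold (Eif3f), with a median log2 fold change of 0.99, and all 12 were called higher in each of the 19 settings. For all 12, every aged control library was above every young control library.

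Eif3f (chr7:108934417-108942951, plus strand, GRCm38, GENCODE vM21), a subunit with an MPN domain, had 395, 399 and 418 CPM in aged EGCG, 439, 446 and 432 CPM in aged control, and 147, 164 and 158 CPM in young control libraries. Every aged library, treated or not, was above every young one. With TMM scaling the aged control libraries were above the EGCG libraries, and by library total alone the aged groups overlapped. The difference between the aged groups was not called (adjusted p 0.0609 by edgeR). The log2 fold change was 1.49 (SE 0.05, adjusted p 1.73e-29 by edgeR) in aged against young control.

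Eif3h (chr15:51786558-51865523, minus strand), the other MPN subunit, had 518, 465 and 472 CPM in aged EGCG, 555, 523 and 499 CPM in aged control, and 206, 214 and 208 CPM in young control libraries. It was the most abundant core subunit per length in each group. Its log2 change with age was 1.33 (SE 0.05).

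Eif3e (chr15:43250058-43282719, minus strand), a subunit with a PCI domain, had 224, 210 and 227 CPM in aged EGCG, 247, 249 and 244 CPM in aged control, and 102, 96.3 and 95.2 CPM in young control libraries. With TMM scaling the 3 groups did not overlap, with the EGCG libraries between both controls. The aged groups overlapped when scaled by library total alone. Its log2 change with age was 1.34 (SE 0.05).

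Eif3b (chr5:140419328-140443360, plus strand), a scaffold subunit that binds Eif3a, had 297, 305 and 307 CPM in aged EGCG, 321, 306 and 289 CPM in aged control, and 126, 128 and 131 CPM in young control libraries. The aged groups overlapped and both lay above the young one. Its log2 change with age was 1.25 (SE 0.05). Next in order of p came Eif3g, an RNA-binding subunit, at 2.14-fold, and Eif3l at 2.17-fold.

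Levels can be compared between genes only per length, so the deposited FPKM values, scaled by library total and gene length, were used for that. Eif3h averaged 388 FPKM in aged EGCG, 384 FPKM in aged control and 191 FPKM in young control libraries. Eif3d, a subunit that can contact the mRNA cap, was lowest, with 59.3 FPKM in aged EGCG, 55.3 FPKM in aged control and 39.9 FPKM in young control libraries. The level of Eif3h was thus 6.55 times that of Eif3d in aged EGCG, 6.96 times in aged control and 4.79 times in young control.

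**Figure D2:**
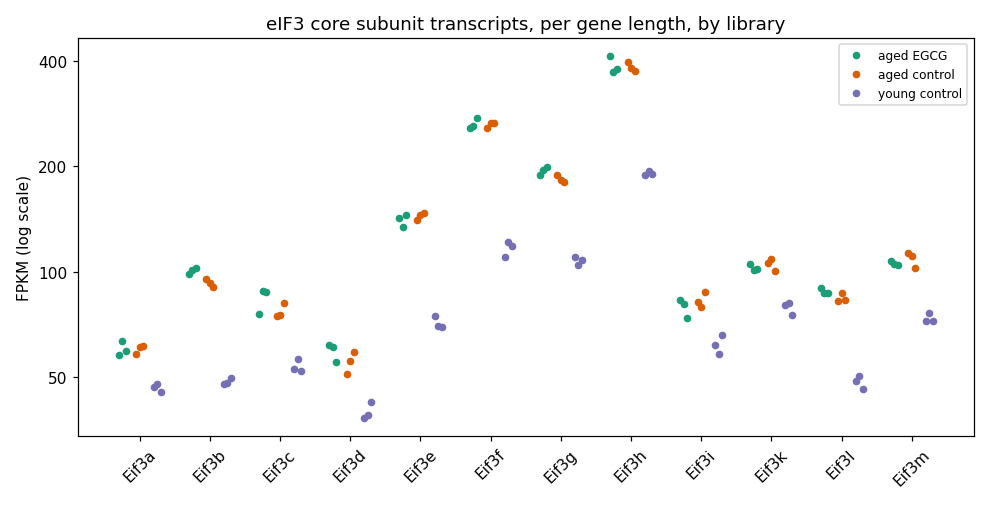
FPKM of the 12 eIF3 core subunit genes on a log axis, with 1 point per library and 3 libraries in each of the aged EGCG (green), aged control (orange) and young control (purple) groups. For every subunit all aged libraries lie above all young ones, and the spread from Eif3d to Eif3h is 6.96 times in aged control and 4.79 times in young control libraries.

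The letters around the annotated start were examined because these genes moved together and because many genes of the translation machinery begin with a pyrimidine tract. The windows below run from 15 bases before to 15 bases after the start annotated by RefSeq (GRCm38.p6), 5′ to 3′ on the gene's strand, for the core subunits with an entry. Capitals mark a tract, defined as C followed by at least 4 C or T on the transcribed strand and beginning within 5 bases of the start.
Eif3a: cggggctcgggcggcggcgctgccgccgcg
Eif3b: ctagcggcgcgcggtgaCTTCTgggagtcg
Eif3c: ctcacctgctcagagggactcggcagctta
Eif3d: gtggtagggccatttacgacagcgctggtc
Eif3f: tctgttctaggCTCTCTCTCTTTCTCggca
Eif3g: tctttacccgggctgggagctgcgtggagt
Eif3k: aaaacaaccggcgctggtgctgaaagcgcc
Eif3l: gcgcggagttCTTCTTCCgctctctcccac
Eif3m: ttttccggtcggcgtgtttctggatcggag
The Eif3f window lies at chr7:108934400-108934429 (plus strand), that of Eif3b at chr5:140419290-140419319 (plus strand) and that of Eif3l at chr15:79075208-79075237 (plus strand). The windows without a tract are at chr19:60790679-60790708 (Eif3a), chr7:126566352-126566381 (Eif3c), chr15:77970810-77970839 (Eif3d), chr9:20898576-20898605 (Eif3g), chr7:28981874-28981903 (Eif3k) and chr2:105017013-105017042 (Eif3m), all on the minus strand. The longest tract of these 9 windows belongs to Eif3f, the subunit with the largest change with age, and 6 of the subunits that rose have none.

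Over the 38 members with a promoter entry, 10 (26.3%) had such a tract, against 23.8% of the 10886 genes tested that have an entry. The 10 with a tract had a median log2 fold change with age of 0.49, of which 8 were called higher, and the 28 without had a median of 0.68, of which 24 were called higher. The E-box CACGTG, which reads the same on both strands and is bound by Myc and related factors, was found in the 300 bases from 250 before to 50 after an annotated start of 10 members (26.3%), against 11.5% of genes tested. The 10 members with it had a median of 0.68 and the 28 without it 0.60, beside 0.13 and 0.02 for all genes tested with and without it. For tract and E-box alike, a gene counted if any of its annotated starts had the match. Genes with more starts thus had more windows, and the number of starts was not matched. The sites of members called higher that lie wholly before the start are shown with 12 bases on either side and the E-box in capitals.
Eif3f: caagatatgattCACGTGgtataaatttag
Eif3k: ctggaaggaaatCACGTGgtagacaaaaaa
Eif4a1: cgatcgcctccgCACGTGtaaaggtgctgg
Eif4g1: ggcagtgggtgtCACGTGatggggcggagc
Eif4h: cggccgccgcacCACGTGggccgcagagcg
Eif5a: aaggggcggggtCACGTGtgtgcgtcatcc
Eif5a2: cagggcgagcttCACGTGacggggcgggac
The E-box begins 68 bases before the annotated start in Eif3f (window chr7:108934335-108934364, plus strand), 44 before it in Eif3k (chr7:28981915-28981944, minus strand) and 54 before it in Eif4g1 (chr16:20672661-20672690, plus strand). The other windows are chr11:69672595-69672624 (minus strand) for Eif4a1, chr5:134639488-134639517 (minus strand) for Eif4h, chr11:69921443-69921472 (minus strand) for Eif5a and chr3:28781148-28781177 (plus strand) for Eif5a2. Eif5a and Eif5a2 each have a further site, 178 and 142 bases before an annotated start. These matches are letters in a window and say nothing of binding.

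The loosely attached eIF3 subunit eIF3j, which helps in ribosome recycling, is encoded by Eif3j1 and the near-identical Eif3j2, between which the counting could split reads, so both values are uncertain. Eif3j1 had 73.3, 69.4 and 73.6 CPM in aged EGCG, 71.3, 67.1 and 81.4 CPM in aged control, and 31.3, 40.7 and 35.8 CPM in young control libraries, and was called higher with age at 2.04-fold. Eif3j2 had 5.35, 3.29 and 2.53 CPM in aged EGCG, 4.47, 16.1 and 4.26 CPM in aged control, and 8.58, 4.18 and 6.54 CPM in young control libraries. Aged control library 2 stood apart for Eif3j2 and decided its mean.

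Among the cap-side factors the changes were uneven. All 5 genes of the helicase group were called higher with age, led by the eIF4A cofactors Eif4b at 1.77-fold and Eif4h at 1.71-fold. Eif4a1, the main helicase, had 250, 256 and 243 CPM in aged EGCG, 263, 272 and 253 CPM in aged control, and 159, 164 and 167 CPM in young control libraries, a rise of 1.61-fold with age. Eif4a2, its paralog (chr16:23107444-23114136, plus strand), had 467, 429 and 404 CPM in aged EGCG, 490, 499 and 490 CPM in aged control, and 351, 344 and 344 CPM in young control libraries. With TMM scaling the aged control libraries were above all others, while by library total alone the aged groups overlapped. The rise with age was 1.42-fold. Eif4a3, the helicase of the exon junction complex, was called at a log2 fold change of 0.27, which was not called and had the opposite sign (-0.12 to -0.05) under scaling by library size, by lens fibre genes, by limma or with the length trend removed.

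Of the eIF4E family, Eif4e3, an atypical cap-binding relative, had the largest change, 2.49-fold higher with age. It had 56.4, 53.5 and 58.1 CPM in aged EGCG and 69.3, 65.2 and 59.2 CPM in aged control libraries. Young control libraries had 26.4, 27.2 and 24.2 CPM. With TMM scaling the 3 groups did not overlap, and by library total alone the aged groups overlapped. The difference between the aged groups was not called (adjusted p 0.0519 by edgeR). These values are given because of their size. Eif4e2, a cap-binding protein that represses translation, was called at 1.34-fold, a call that held in 15 of 19 settings, with a log2 fold change of 0.06 (adjusted p 0.526) scaled to lens fibre genes. Eif4e itself, the cap-binding subunit that limits initiation, had 35.9, 31.7 and 35.8 CPM in aged EGCG, 38.2, 41.2 and 38.1 CPM in aged control, and 39.2, 44.1 and 40.2 CPM in young control libraries. The controls overlapped, and the log2 fold change with age was -0.07 (95% interval -0.25 to 0.11). Eif4e was called lower scaled by library size (-0.39), to lens fibre genes (-0.44) or with either limma setting (-0.33 and -0.39), and higher with the length trend removed (0.21, adjusted p 0.0309 by edgeR), so its direction with age rests on the setting. Eif4enif1, which carries eIF4E into the nucleus, was not called (log2 fold change 0.10), and was called lower scaled by library size (-0.23) or to lens fibre genes (-0.27).

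The scaffold genes divided. Eif4g2, a relative of eIF4G that lacks the eIF4E-binding site, was called higher at 1.39-fold. Eif4g1, the main scaffold, had 250, 287 and 269 CPM in aged EGCG, 260, 257 and 260 CPM in aged control, and 220, 231 and 222 CPM in young control libraries, and was called higher at 1.16-fold, a call that turned to a log2 fold change of -0.16 scaled to lens fibre genes. Eif4g3 (chr4:137993022-138208508, plus strand), the other full-length scaffold, had 90.7, 92.4 and 91.2 CPM in aged EGCG, 87.6, 88.7 and 108 CPM in aged control, and 132, 138 and 124 CPM in young control libraries. Both aged groups lay below the young one. With age the log2 fold change was -0.47 (SE 0.07, adjusted p 2.22e-08 by edgeR). Eif4g3 is the longest of the members by the length behind the FPKM values, and with each library's trend against gene length removed its value was -0.05 (adjusted p 0.483).

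Start codon scanning factors also moved in both directions. Eif1 (chr11:100319885-100322096, plus strand) had 320, 323 and 320 CPM in aged EGCG, 365, 375 and 351 CPM in aged control, and 220, 224 and 226 CPM in young control libraries, without overlap, a rise of 1.63-fold with age. Eif5, the GTPase activator of eIF2, had 248, 251 and 262 CPM in aged EGCG, 277, 287 and 283 CPM in aged control, and 204, 207 and 205 CPM in young control libraries. With TMM scaling these groups did not overlap either, while by library total alone the aged groups overlapped. The rise with age was 1.37-fold. The call of Eif5 was lost when scaled to lens fibre genes (log2 fold change 0.09, adjusted p 0.0998). Eif1ad, named for its eIF1A-like domain, was called higher at 1.35-fold, a call that held in 14 of 19 settings. Its log2 fold change was 0.07 (adjusted p 0.673) scaled to lens fibre genes, and without young control library 3 it was 0.30 (adjusted p 0.0627). Eif1b, a paralog of Eif1, was not called, with values between 51.2 and 62.9 CPM in all 9 libraries, and was called lower in 5 other settings, at -0.35 to -0.19, and higher without aged control library 3, at 0.21.

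eIF1A is encoded by Eif1a on chromosome 18 and Eif1ax on the X chromosome, and the 2 genes moved in opposite directions. Eif1ax had 121, 113 and 116 CPM in aged EGCG, 117, 125 and 116 CPM in aged control, and 82.1, 84.4 and 81.4 CPM in young control libraries. Eif1a had 26.6, 22.1 and 27.4 CPM in aged EGCG, 24.5, 24.1 and 23.1 CPM in aged control, and 32.3, 31.8 and 32.4 CPM in young control libraries. The young libraries were below all aged ones for Eif1ax and above all aged ones for Eif1a. With age the log2 fold change was 0.53 (SE 0.06) for Eif1ax and -0.43 (SE 0.10) for Eif1a, and both calls held in each of the 19 settings. The genes are paralogs, and reads shared between them could be split by the counting.

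Eif5b (chr1:37998010-38055579, plus strand), the GTPase that joins the ribosomal subunits, had the most counts of all members and differed between all 3 groups. It had 643, 673 and 652 CPM in aged EGCG, 775, 860 and 804 CPM in aged control, and 976, 970 and 949 CPM in young control libraries. The groups did not overlap, with the EGCG libraries lowest. The log2 fold change was -0.25 (SE 0.04, adjusted p 2.55e-06 by edgeR) in aged against young control, and -0.07 (adjusted p 0.114) with the length trend removed.

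**Figure D3:**
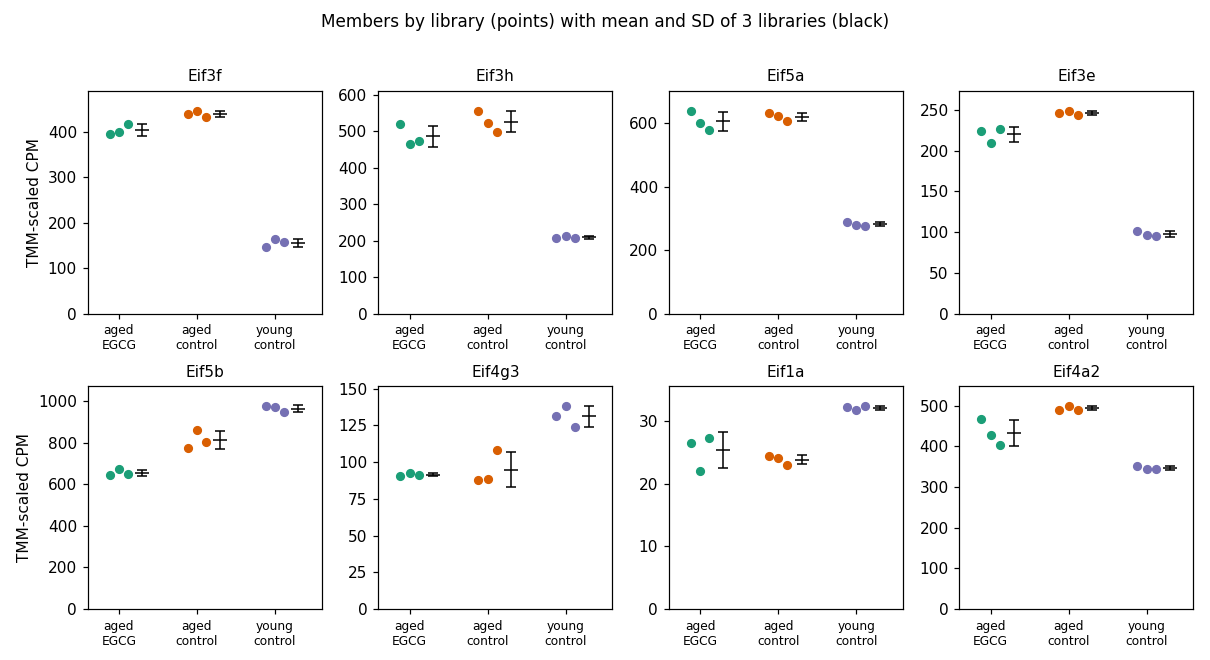
TMM-scaled CPM of 8 members by library (points; aged EGCG green, aged control orange, young control purple) with the mean and SD of the 3 libraries of each group (black), each panel starting at 0. Eif3f, Eif3h, Eif5a and Eif3e are higher in all aged libraries than in the young ones, Eif5b, Eif4g3 and Eif1a are lower, and Eif5b and Eif4a2 are also lower in aged EGCG than in aged control libraries.

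Of the genes of eIF2, which carries the initiator tRNA, the beta subunit gene Eif2s2 was called higher with age at 1.81-fold and the alpha subunit gene Eif2s1, whose product is phosphorylated under stress, at 1.30-fold. The call of Eif2s1 held in 15 of 19 settings and was lost with either limma setting, by library size or scaled to lens fibre genes, where its log2 fold change was 0.01 (adjusted p 0.865). The gamma subunit is encoded on the X and on the Y chromosome. Eif2s3x had 81.9, 92.8 and 81.3 CPM in aged EGCG, 69.9, 72.3 and 85.2 CPM in aged control, and 75.2, 75.8 and 70.7 CPM in young control libraries, and its log2 fold change with age was 0.03 (95% interval -0.11 to 0.18). It was called lower with age scaled by library size (-0.29), to lens fibre genes (-0.33) or with either limma setting (-0.28 and -0.29). Eif2s3y had 32.7, 32.1 and 27.9 CPM in aged EGCG, 35.4, 34.6 and 34.4 CPM in aged control, and 27.2, 29.0 and 27.4 CPM in young control libraries. Eif2s3y had counts in every library, as did the Y-linked genes Ddx3y, Kdm5d and Uty. Other sex-linked genes differed with age as well: among Y-linked genes Ddx3y was called 2.18-fold and Uty 1.42-fold higher in aged against young control, and Kdm5d was not called. Among X-linked genes Kdm5c was 2.03-fold lower (60.8 CPM in aged control and 124 CPM in young control libraries) and Kdm6a 2.18-fold lower, and Ddx3x was not called. Their part in the values of Eif2s3y, Eif2s3x and Eif1ax was not tested. Eif2s3y was called higher with age at 1.25-fold, while scaled by library size its log2 fold change was -0.00477 (adjusted p 0.968).

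All 5 eIF2B genes, which encode the exchange factor that recharges eIF2, were called higher with age, from 1.33-fold (Eif2b4) to 2.06-fold (Eif2b1). The calls of 4 of them held in each of the 19 settings, and that of Eif2b4 did in 13; without young control library 2 it was at 0.26 (adjusted p 0.0779), and scaled to lens fibre genes at 0.04. Both genes for factors that deliver initiator tRNA without eIF2 rose as well, Eif2a at 1.97-fold and Eif2d at 1.56-fold, the call of Eif2d being lost with limma (adjusted p 0.0639 and 0.0651).

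Eif5a (chr11:69916714-69921958, minus strand), which carries the modified amino acid hypusine and acts mainly in elongation and termination, had 638, 600 and 577 CPM in aged EGCG, 632, 622 and 607 CPM in aged control, and 288, 279 and 277 CPM in young control libraries. The aged groups overlapped, and the young libraries were far below both. With age the log2 fold change was 1.14 (SE 0.05, adjusted p 4.33e-26 by edgeR). Its paralog Eif5a2 had 12.96, 11.5 and 10.2 CPM in aged EGCG, 13.8, 12.3 and 11.4 CPM in aged control, and 11.3, 9.29 and 6.17 CPM in young control libraries, and was called higher with age at 1.40-fold. This call held in 13 of 19 settings; the log2 fold change was 0.12 (adjusted p 0.567) scaled to lens fibre genes, 0.42 (adjusted p 0.0565) without aged control library 1 and 0.28 (adjusted p 0.178) without young control library 3. Eif6, which holds the large ribosomal subunit apart from the small one, was 1.88-fold higher with age.

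Shares within a pair of paralogs do not depend on library scaling. They are shares of raw counts, so gene length affects them, and the length trend was not removed. By counts Eif4a1 is the smaller part of its pair, while per length it averaged 126 FPKM in aged control libraries and Eif4a2 97.5 FPKM. Eif1a made up 17.8% ± 1.41 of Eif1a and Eif1ax counts in aged EGCG, 16.7% ± 0.60 in aged control and 28.0% ± 0.59 in young control libraries (SD, n = 3 each). Eif4g3 made up 25.4% ± 1.16 of Eif4g3 and Eif4g1 counts in aged EGCG, 26.7% ± 2.36 in aged control and 36.9% ± 0.91 in young control libraries. Eif4a1 made up 36.6% ± 1.49 of Eif4a1 and Eif4a2 counts in aged EGCG, 34.7% ± 0.66 in aged control and 32.0% ± 0.77 in young control libraries. For each of these 3 pairs the aged libraries of either group did not overlap the young ones. The share of Eif5a2 in Eif5a and Eif5a2 was 1.87% ± 0.13 in aged EGCG, 1.97% ± 0.15 in aged control and 3.07% ± 0.82 in young control libraries. The share of Eif3j2 in Eif3j1 and Eif3j2 was 4.88% ± 1.76 in aged EGCG, 10.1% ± 8.02 in aged control and 15.4% ± 6.11 in young control libraries, with 1 aged control library at 19.3%. In the exact permutation test (two-sided), aged control against young control gave p = 0.1, the smallest that 3 against 3 libraries allow, for 4 of the pairs and 0.4 for Eif3j2. Aged EGCG against young control gave exact p = 0.1 for all 5. Aged EGCG against aged control gave exact p-values from 0.3 to 0.6 over the 5 pairs. The 15 exact tests cannot pass a correction for multiple testing at this size.

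**Figure D4:**
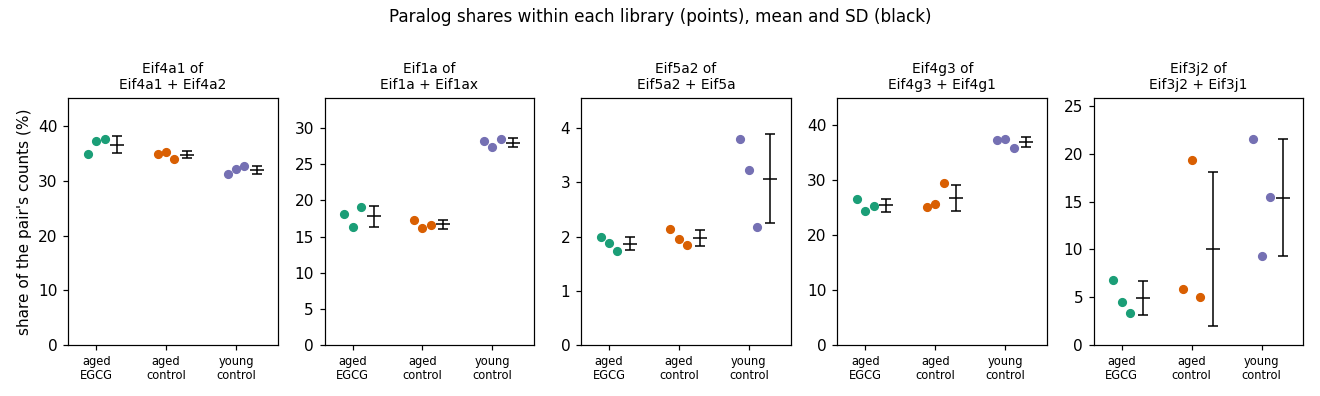
Share of the pair's counts (%) taken by the first gene of each of 5 paralog pairs, by library (points; aged EGCG green, aged control orange, young control purple), with the mean and SD of 3 libraries (black), each panel starting at 0. The shares of Eif1a and Eif4g3 are lower and that of Eif4a1 is higher in every aged library than in every young one, and for Eif3j2 a single aged control library is at 19.3%.

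Aged EGCG and aged control capsule differed much less in these genes. None of the 47 was called higher and 10 were called lower by edgeR, against 13.8% of all genes called higher and 10.3% called lower. At an unadjusted p under 0.05, 1 member was higher and 15 were lower by edgeR. DESeq2 called 0 higher and 11 lower, and limma on FPKM called 4 higher and 1 lower. The 10 called lower by edgeR after adjustment were Eif3j2, Eif5b, Eif3i, Eif4a2, Eif1, Eif3m, Eif3e, Eif3k, Eif5 and Eif2s2. Apart from Eif3j2, they differed by 1.11-fold to 1.24-fold, and the 95% intervals of all called and uncalled members are in the plot of changes by role. Of the 19 settings, the call held in 5 for Eif2s2 (adjusted p 0.0464 by edgeR) and 6 for Eif3k. It held in 10 for Eif3m, 11 for Eif3i and 12 for Eif5. For Eif3j2, Eif4a2 and Eif3e it held in 14, and for Eif1 in 15. The members' median log2 fold change was -0.05, beside -0.00 over all genes. The libraries did not overlap for 14 members, against 33.5% of all genes.

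Eif5b was the clearest of the 10, with a log2 fold change of -0.31 (SE 0.04, adjusted p 1.75e-07 by edgeR) and all 3 EGCG libraries below all 3 aged controls, as listed above. Its call held in 18 of 19 settings and was lost when scaled to lens fibre genes (-0.09, adjusted p 0.0777). The next by p were the helicase gene Eif4a2 at -0.19 (adjusted p 0.00241) and Eif1 at -0.18 (adjusted p 0.00278 by edgeR). With TMM scaling the groups did not overlap for either gene, and by library total alone they overlapped for Eif4a2. Scaled by library size, both calls were lost, at -0.05 (adjusted p 0.451 by edgeR) for Eif1 and -0.06 (adjusted p 0.390 by edgeR) for Eif4a2. Both were also lost when scaled to lens fibre genes or with either limma setting. Eif5 was at -0.15 (adjusted p 0.0140) and the 4 eIF3 core genes between -0.19 and -0.16. Eif3j2 was at -1.16 (adjusted p 0.00626), and without aged control library 2 at -0.23 (adjusted p 0.682).

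The direction of the EGCG difference turned with the scaling. By library size alone, 6 members were called higher and 2 lower, against 22.5% of all genes called higher and 4.46% called lower. Scaled to lens fibre genes, 17 were called higher and 1 lower, against 35.5% and 2.95% of all genes. The median of all genes moved up by 0.13 and 0.22 in those settings. The lens fibre genes used as a scale differed between the aged groups themselves. Under TMM scaling, 13 of 21 were called lower and 0 higher, against 10.3% and 13.8% of all genes. Relative to the median of all genes the members stayed lower by 0.01 to 0.09 in all 19 settings. This gap cannot test the scaling either. No member was called in the same direction in all 19. Without aged control library 2 there were 5 members called lower, and without aged EGCG library 3 there were 4.

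**Figure D5:**
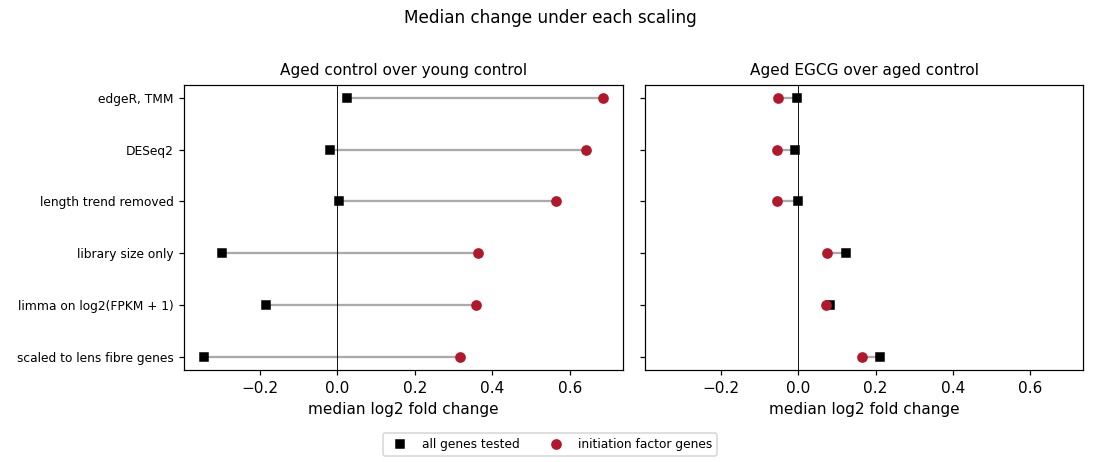
Median log2 fold change of the initiation factor genes (red circles) and of all genes tested (black squares) under 6 ways of scaling or testing, for aged control over young control (left) and aged EGCG over aged control (right). On the left the members' median is above 0 and above that of all genes each time; on the right both medians turn from slightly negative to positive under the last 3, with the members slightly below all genes each time.

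In aged EGCG against young control capsule, 39 members were called higher and 5 lower by edgeR, against 32.3% and 31.4% of all genes, and libraries did not overlap for 42 members, against 68.3% of all genes. The members' median log2 fold change was 0.57, beside -0.02 over all genes. All 12 eIF3 core genes were called higher, by 1.46-fold to 2.58-fold, in each of the 19 settings. The largest were again Eif3f (log2 fold change 1.37), Eif3b (1.24), Eif3h (1.21) and Eif3e (1.17), and Eif5a was at 1.11. Those called lower were Eif3j2 (-0.79), Eif5b (-0.56), Eif4g3 (-0.52), Eif1a (-0.35) and Eif4e (-0.26). Eif5b held in all 19 settings, with values from -0.75 to -0.39. Eif4g3 and Eif4e lost their calls with the length trend removed, where Eif4e was at 0.02, and 2 members were called lower without aged EGCG library 2. The call held in 12 of 19 settings for Eif3j2, 16 for Eif4e, and 18 for Eif4g3 and Eif1a. For Eif3j2 the libraries of both groups overlapped. Eif1b, Eif2s3y and Eif5a2 were not called.

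Changes with age were related to gene length and to expression level. Across the 47 genes, Spearman's rho between length and log2 fold change in aged against young control was -0.46, and across all 13711 genes tested it was -0.33; genes of 1 library set share depth and composition and are not independent replicates. With the length trend removed, 38 members were called higher and 2 lower in aged against young control, and the members' median was 0.56, beside 0.00 over all genes. Between mean CPM and log2 fold change in the same comparison, Spearman's rho was 0.29 across the 47 genes and 0.33 across all genes tested. The part of expression level in the members' changes was not tested.

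Of 35 regulators of initiation tested, 20 were called higher with age and 7 lower by edgeR, against the 35.4% and 33.8% of all genes given above. Scaled by library size, 11 were called higher and 13 lower, against 21.4% and 47% of all genes. Pabpc1, the cytoplasmic poly(A)-binding protein that contacts eIF4G, averaged 1074 CPM in aged control and 470.0 CPM in young control libraries, 2.28-fold higher. Pdcd4, an inhibitor of eIF4A, was 2.38-fold higher and Mknk2, a kinase of eIF4E, 2.22-fold higher. Bzw2, a mimic of the eIF5 C-terminal region, was 5.76-fold lower in aged against young control. These 4 kept their direction and call under both other scalings. In aged EGCG against aged control 2 regulators were called higher and 5 lower, against 13.8% and 10.3% of all genes. Bzw2 averaged 15.1 CPM in aged EGCG and 5.15 CPM in aged control libraries, 2.96-fold higher. Mtor, the kinase upstream of the eIF4E-binding proteins, was called lower at 1.24-fold, Ppp1r15a, which recruits the eIF2 alpha phosphatase, at 1.23-fold, and Eif4ebp3 at 2.67-fold. The calls of Mtor and Ppp1r15a were lost when scaled to lens fibre genes, where 17 regulators were called higher and 1 lower, against 35.5% and 2.95% of all genes. By library size alone Ppp1r15a also lost its call (log2 fold change -0.17, adjusted p 0.0734 by edgeR). Mtor kept its call there (-0.18, adjusted p 0.0250 by edgeR). Set against young control, 18 regulators were called higher and 4 lower in aged EGCG, against 32.3% and 31.4% of all genes. Those higher include Atf4, the transcription factor of the integrated stress response, at 1.87-fold. Atf4 was also called higher in aged against young control (log2 fold change 0.90, adjusted p 2.9e-18 by edgeR). Between aged EGCG and aged control it was not called (log2 fold change -0.004, adjusted p 0.977 by edgeR).

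Among elongation and termination factors, of 15 tested, 11 were called higher with age and 2 lower, against 35.4% and 33.8% of all genes. Scaled by library size, 9 were called higher and 4 lower, against 21.4% and 47% of all genes. Eef1a1, which delivers aminoacyl-tRNA, was 2.33-fold higher, Eef2, the translocase, 2.32-fold and Eef1d, an exchange factor subunit, 2.34-fold. Eef1a2, the neuronal and muscle paralog of Eef1a1, went the other way: it averaged 66.0 CPM in aged EGCG, 10.6 CPM in aged control and 124 CPM in young control libraries. It was 11.7-fold lower in aged against young control and 6.24-fold higher in aged EGCG against aged control. Its order of groups, and that of Bzw2, is the order of the summed retinal markers given above. Between aged EGCG and aged control, 1 gene of the list was called higher and 4 lower, against 13.8% and 10.3% of all genes. Those lower were Eef1d, Eef1a1, Eef1b2 and Eef1g, by 1.08-fold to 1.14-fold. None of these 4 was called lower when scaled by library size or to lens fibre genes. Against young control, 9 were called higher and 1 lower in aged EGCG, against 32.3% and 31.4% of all genes.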

How the data were processed

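The authors deposited whole-number read counts per gene, with no normalization, and FPKM values, fragment counts per length and depth, which equal the counts over 1 length per gene and the library total. Per the submitters' processing notes the build was GRCm38 (mm10), and per the labels' protocols libraries were made with a SMARTER kit; the aligner, the counter and its strand setting were not given in the sources used here. Counts were tested with edgeR 4.0.16 in R 4.3.3 (filterByExpr, TMM, quasi-likelihood test, 1 fit of 3 group means over 9 libraries, two-sided, Benjamini-Hochberg over 13711 genes, called at 0.05). The procedure was tested on simulated data, in which few genes changed, in both directions, so the choice of scaling could not be tested there. Folds and log2 values are the fitted ones, CPM are TMM-scaled, and a count of 3 in a library is 0.183 to 0.232 CPM; intervals are at 95% and cover the spread between these libraries only. Alternatives were DESeq2 1.42.0, limma 3.58.1 on log2(FPKM + 1) and log2(FPKM + 0.1), scaling by library size or lens fibre genes, removal of the length trend, no filter, 2 groups only, a replicate block and leaving out each library. Gene lists under other scalings were added after seeing the data. The members, role groups and gene lists were chosen with earlier results of these data known. Members were described by role; values per library are given for up to 5 called higher and 5 called lower with the smallest p in each comparison, paralog pairs and Eif2s3x and Eif2s3y, and up to 4 called genes with the smallest p from each other list. Eif4e3 and counts of 5 or fewer were named after their values were seen. Gene positions are from GENCODE vM21, and start-site sequences from RefSeq (GRCm38.p6), which matched 38 of 47 members. Xist and protein sequences were not analysed here.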

Additional observations from a re-analysis of the deposited data

How the results depend on the processing

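The settings were the fit reported and 18 alternatives for each of 47 genes in 3 comparisons. Members called lower in aged against young control were 7 scaled by library size, 8 scaled to lens fibre genes and 6 with either limma setting. Members called higher in aged EGCG against aged control were 6, 17, 4 and 4 in those settings, and 0 to 1 with a library left out, while those called lower were 2, 1, 1 and 1, and 4 to 12 with a library left out. With a library left out, 2 to 5 were called lower in aged EGCG against young control. The other counts of called members stayed within 1.5 times. The cause was not tested.

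Single genes with a call in either setting changed sign as follows (log2 fold change). In aged against young control, scaled by library size: Eif1b -0.19, Eif2s3x -0.29, Eif2s3y -0.00477, Eif4a3 -0.0543, Eif4enif1 -0.23 and Eif4g1 -0.11. With lens fibre genes as the scale, they were -0.23, -0.33, -0.0508, -0.10, -0.27 and -0.16. With limma on log2(FPKM + 1), Eif1b -0.19, Eif2s3x -0.28, Eif2s3y -0.00278, Eif4a3 -0.0489 and Eif4g1 -0.11, and on log2(FPKM + 0.1) -0.19, -0.29, -0.00343, -0.0501 and -0.11. With the length trend removed, Eif1b -0.35, Eif4a3 -0.12 and Eif4e 0.21. In aged EGCG against young control, Eif1b was -0.35, Eif4a3 -0.0427 and Eif4e 0.0156 with the length trend removed, and Eif1b -0.16 with either limma setting. In aged EGCG against aged control, scaled to lens fibre genes: Eif1 0.0353, Eif1ax 0.19, Eif2s2 0.0659, Eif3b 0.20, Eif3c 0.20, Eif3d 0.19, Eif3e 0.0534, Eif3g 0.16, Eif3i 0.0250, Eif3k 0.0537, Eif3l 0.15, Eif3m 0.0448, Eif4a1 0.14, Eif4a2 0.0289, Eif4b 0.21, Eif5 0.0613 and Eif5a 0.18, and Eif4b 0.12 by library size. Sign changes of genes called in neither setting are not listed; the most were 23 of 47, in aged EGCG against aged control with limma.

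Replicate numbers showed no pairing in these values. Same-numbered libraries of different groups deviated together with r between -0.02 and 0.03, and differently numbered ones with r between -0.02 and 0.04. These correlations cannot show whether the samples were paired by design. With the replicate block 12 members were called lower in aged EGCG against aged control, 39 higher and 3 lower in aged against young control, and 40 higher and 5 lower in aged EGCG against young control.

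With 3 libraries a group and a biological coefficient of variation of 7.89%, small differences between aged EGCG and aged control are near the limit of detection, and members with few counts, Eif3j2 and Eif5a2, are the least precise. The fixed length per gene behind FPKM does not follow isoform use, and retinal RNA differs between the groups.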
